A study of Mus musculus with 185 samples.

Results

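The genes described here are 9 genes of the cartilage, bone and tendon programmes, Sox9, Scx, Runx1, Runx2, Cilp, Comp, Chad, Acan and Tnmd, out of 17171 genes measured in single cells of the mouse heart. They were named as a list, by what they are known for, with earlier results of these data at hand. All 9 have a row in the table. The question is whether fibroblasts of the infarct carry RNA of such a matrix programme 7 days after myocardial infarction (MI), compared with fibroblasts of uninjured hearts. All cells came from C57BL/6 mice (backcross N=6) of approximately 5 months, and were depleted of CD31+ endothelial and CD45+ blood cells by sorting. For the infarct cells, MI was made by permanent ligation of the left coronary artery.

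Lineage tracing used knock-in alleles that carry the tamoxifen-inducible recombinase MerCreMer in the Postn or the Tcf21 gene (Postn MCM/+; R26-eGFP and Tcf21 MCM/+; R26-eGFP), where tamoxifen activates the recombinase, which switches on the eGFP reporter in cells that use the locus, and daughter cells inherit the label. Each animal therefore carried 1 changed copy of the gene used for tracing. The reporter misses some cells, and a cell may be eGFP-negative although it makes Postn mRNA. From infarcts came 27 Postn-traced cells, 24 Postn-negative cells, 28 untraced cells that express Postn, 44 Tcf21-traced cells and 29 untraced cells labelled as from the scar. From hearts labelled uninjured came 17 Tcf21-traced cells, 12 cells labelled Postn- CD31- CD45-, 3 Tcf21+ cells that express Postn and 1 CD31- CD45- cell that expresses Postn. The study's text gives sham hearts as the source of these 33 cells, whereas a figure legend places control cells sorted without CD31 and CD45 in the remote region. They are called resident cells from here on, and the 12 cells labelled Postn- are called resident CD31- CD45- cells.

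Sox9 is the transcription factor that starts and maintains the cartilage programme, and Runx2 does the same for bone, with Runx1, its relative, active in blood and in early skeletal progenitors. Scx is the transcription factor of tendon progenitors and Tnmd a membrane protein of mature tendon cells. Acan is the large proteoglycan of cartilage, Comp a glycoprotein that binds collagen in cartilage and tendon, Chad a leucine-rich protein of cartilage matrix, and Cilp a matrix protein of the middle layer of cartilage that also occurs in heart fibroblasts. Scar formation after MI rests on fibroblasts that turn into myofibroblasts, which secrete collagen and periostin, the product of Postn.

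The cells were captured in 4 runs that are named by date, and the classes follow the runs. All 33 resident cells were in the Jul24 run. The Jul29 run held the Postn-traced and Postn-negative infarct cells with 6 untraced Postn-positive cells, the Nov4 run held the Tcf21-traced infarct cells with 19 untraced Postn-positive cells, and the Nov11 run held the untraced scar cells with 3 untraced Postn-positive cells. A difference between classes of separate runs and a difference between the runs cannot be told apart. Each group had 3 mice, but no label says which mouse a cell came from, so each class is 1 sample here, no test was made, and the SD given beside a mean is the spread between cells.

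Values are log2(TPM + 1), where TPM is a transcript abundance corrected for transcript length and expressed relative to all transcripts of the cell. A gene is called above the minimum in a cell when it exceeds 5 TPM. The number of genes above the minimum stands in for depth: its median was 2258 in the Jul24 run (lowest 1674, highest 2887), 2715 in Jul29 (1598 to 4881), 3299 in Nov4 (1746 to 5023) and 3198.5 in Nov11 (141 to 5419). By class, the median was 2342 in Postn-negative and 3643 in Postn-traced cells of the same run, 3134 in infarct Tcf21-traced cells and 2264 in resident Tcf21-traced cells. It was 3280.5 in untraced Postn-positive and 3177 in scar cells, so Postn-negative and resident cells had the fewest genes above the minimum by median. In 5 scar cells it was under 300. The highest correlation between any pair of cells over all genes was 0.66, so no cell appears under 2 names.

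The cells were checked against marker genes of fibroblasts and of other cell types. At least 3 of 6 fibroblast markers (Col1a1, Col3a1, Pdgfra, Tcf21, Dcn, Lum) were above the minimum in 180 cells, which leaves out 1 resident CD31- CD45- cell and 4 scar cells, and Dcn was above it in every cell and the most abundant of them. Endothelial markers never reached 3 in a cell: Pecam1 was above the minimum in 5 cells and Kdr in 1, with Tek, in 47 cells, the most abundant. At least 3 of 6 myeloid markers were found in 2 cells, and Ptprc, which encodes CD45, was above the minimum in 1 cell. Pericyte markers reached 3 of 6 in 5 cells, with Pdgfrb the most abundant, cardiomyocyte markers in 3 cells and epicardial markers in 1. Smooth muscle markers reached 3 of 6 in 22 cells, namely 10 of 44 infarct Tcf21-traced, 6 of 28 untraced Postn-positive, 4 of 27 Postn-traced and 2 of 29 scar cells, against 0 of 24 Postn-negative and 0 of 33 resident cells. Tagln was the most abundant of these markers, which include Acta2, the actin that myofibroblasts share with smooth muscle, whereas Myh11 was above the minimum in 2 cells and Cnn1 in 3.

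Sox9 (chromosome 11, bases 112782224 to 112787760, plus strand, GRCm38) was the member found in most cells. It was above the minimum in 143 cells, which is 77.3% of all (exact 95% interval 70.6 to 83.1). Resident cells and infarct cells had near-equal shares, 26 of 33 or 78.8% (61.1 to 91) and 117 of 152 or 77% (69.5 to 83.4), and near-equal mean levels, 5.20 ± 3.14 (SD) and 5.30 ± 3.09. Sox9 RNA was thus present in most of these fibroblasts with and without infarction. The intervals cover counting error only.

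Among classes of at least 10 cells, mean Sox9 was highest in Postn-negative infarct cells at 6.20 ± 2.66 (SD, n = 24), with a lowest value of 0, a median of 6.91 and a highest of 8.87. Infarct Tcf21-traced cells followed at 5.93 ± 2.40 (n = 44), with a lowest value of 0, a median of 6.64 and a highest of 8.96. Resident Tcf21-traced cells had 5.32 ± 2.80 (n = 17, lowest 0, median 6.28, highest 8.09). All 3 classes overlap over nearly their whole range, and no neighbours in the order of class means differed by more than the SD of either. Next came Postn-traced cells at 5.04 ± 3.46 (n = 27, lowest 0, median 6.12, highest 9.40), untraced Postn-positive cells at 4.93 ± 3.37 (n = 28, lowest 0, median 5.55, highest 9.58) and resident CD31- CD45- cells at 4.68 ± 3.38 (n = 12, lowest 0, median 5.12, highest 9.28). Scar cells were lowest at 4.19 ± 3.47 (n = 29, lowest 0, median 6.08, highest 9.83), with 10 of 29 cells at 0, and the 10 include all 5 cells with under 300 genes.

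Runx1 (chromosome 16, bases 92601466 to 92826149, minus strand) was above the minimum in 81 cells, 78 from infarcts and 3 resident. Postn-traced cells had a lowest value of 0, a median of 5.69 and a highest of 7.90, with 21 of 27 cells above the minimum or 77.8% (57.7 to 91.4). Postn-negative cells of the same run had a median of 0 and a highest of 4.6, with 1 of 24 above the minimum or 4.17% (0.105 to 21.1). Only 1 Postn-negative cell reached the range of the Postn-traced cells that were above the minimum, which began at 3.67. Infarct Tcf21-traced cells had a lowest value of 0, a median of 5.32 and a highest of 8.38, with 26 of 44 above the minimum or 59.1% (43.2 to 73.7). Resident Tcf21-traced cells had a median of 0 and a highest of 6.23, with 1 of 17 above the minimum or 5.88% (0.149 to 28.7). The Tcf21-traced classes come from separate runs.

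The order of mean Runx1 was Postn-traced 4.91 ± 2.78, infarct Tcf21-traced 4.04 ± 3.26, untraced Postn-positive 3.89 ± 3.11, scar 2.89 ± 3.30, resident CD31- CD45- 1.5 ± 3.52, resident Tcf21-traced 0.41 ± 1.51 and Postn-negative 0.28 ± 1.02, and no neighbours in it differ beyond the SD of either. Untraced Postn-positive cells split by run: 14 of 19 were above the minimum in Nov4, 1 of 6 in Jul29 and 2 of 3 in Nov11. The 2 resident CD31- CD45- cells above the minimum were at 8.27 and 9.76, beside 10 cells at 0. The cell at 9.76 had 5 of the 6 myeloid markers above the minimum, Ptprc among them, and 1 of the 6 fibroblast markers, Dcn, with Col1a1 and Tcf21 at 0. The cell at 8.27 had all 6 fibroblast markers and 0 myeloid markers above it. Scar cells ran from 0 to 10.43 with a median of 1.55. The highest value was in a cell with 188 genes above the minimum and Col1a1 at 0, and the next was 8.82.

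Runx1 also went with the number of genes per cell. Over the cells of a run, Pearson r between Runx1 and that number was 0.64 in Jul29 (n = 57) and 0.56 in Nov4 (n = 63), and within a class it was 0.44 in Postn-traced (n = 27) and 0.61 in infarct Tcf21-traced cells (n = 44). The cells of a run share the date in their names. Among cells with 2000 to 3500 genes above the minimum, a range chosen after the data were seen, Runx1 was above the minimum in 63.6% of 11 Postn-traced and 0% of 21 Postn-negative cells, and in 33.3% of 24 infarct and 9.09% of 11 resident Tcf21-traced cells. The part of depth in the differences was otherwise not tested.

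Runx2 (chromosome 17, bases 44495987 to 44814797, minus strand) was rarer, above the minimum in 31 cells or 16.8% of all (11.7 to 22.9). Its share was 7 of 27 or 25.9% (11.1 to 46.3) in Postn-traced, 7 of 28 or 25% (10.7 to 44.9) in untraced Postn-positive and 10 of 44 or 22.7% (11.5 to 37.8) in infarct Tcf21-traced cells. In Postn-negative cells it was 1 of 24 or 4.17% (0.105 to 21.1), in scar cells 2 of 29 or 6.90% (0.846 to 22.8), in resident Tcf21-traced cells 1 of 17 and in resident CD31- CD45- cells 2 of 12. The median was 0 in each of these classes. Mean levels ran from 1.77 ± 2.61 in Postn-traced through 1.32 ± 2.20 in infarct Tcf21-traced, 1.32 ± 2.30 in untraced Postn-positive, 1.04 ± 2.27 in resident CD31- CD45-, 0.47 ± 1.38 in scar and 0.30 ± 1.14 in Postn-negative to 0.22 ± 0.76 in resident Tcf21-traced cells, with every gap within the SD of either neighbour. In Postn-traced cells all 7 cells with Runx2 above the minimum also had Runx1 above it, and in infarct Tcf21-traced cells 7 of 10 did. Runx2 overlaps the Supt3 gene, which runs on the opposite strand and shares no exon bases with it. Supt3 was above the minimum in 16 cells, 4 of them with Runx2 above it.

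Runx1, Runx2 and Cilp each had a higher class mean in Postn-traced than in Postn-negative cells, so their promoter windows are shown. Within Postn-traced cells, r was 0.07 between Runx1 and Cilp and -0.21 between Runx2 and Cilp. Binding of RUNX proteins to these windows was not tested. The windows run from 250 bases before to 50 after a RefSeq start site (GRCm38.p6), 5′ to 3′ on the strand of the gene. Of the 9 members, 6 have a window: Runx1 (with 2 start sites), Runx2, Cilp, Chad, Acan and Tnmd. Capitals mark matches, on either strand, to TGTGGT or TGCGGT, core motifs bound by RUNX proteins, which on the other strand read ACCACA and ACCGCA. The windows lie at chr16:92826025-92826324 (minus) and chr16:92697280-92697579 (minus) for Runx1, chr17:44814578-44814877 (minus) for Runx2 and chr9:65264930-65265229 (plus) for Cilp.
Runx1, upstream start: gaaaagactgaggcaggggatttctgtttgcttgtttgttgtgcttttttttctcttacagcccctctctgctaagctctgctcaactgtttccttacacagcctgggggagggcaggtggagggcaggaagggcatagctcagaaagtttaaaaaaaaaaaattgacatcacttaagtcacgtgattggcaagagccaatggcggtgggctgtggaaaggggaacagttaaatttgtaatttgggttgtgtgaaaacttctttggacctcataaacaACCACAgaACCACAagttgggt
Runx1, downstream start: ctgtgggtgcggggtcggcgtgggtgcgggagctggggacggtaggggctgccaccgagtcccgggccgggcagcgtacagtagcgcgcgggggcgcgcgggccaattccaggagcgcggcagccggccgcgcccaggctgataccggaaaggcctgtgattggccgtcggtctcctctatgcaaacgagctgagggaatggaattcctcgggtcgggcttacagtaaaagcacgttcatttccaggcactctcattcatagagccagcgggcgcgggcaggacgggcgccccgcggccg
Runx2: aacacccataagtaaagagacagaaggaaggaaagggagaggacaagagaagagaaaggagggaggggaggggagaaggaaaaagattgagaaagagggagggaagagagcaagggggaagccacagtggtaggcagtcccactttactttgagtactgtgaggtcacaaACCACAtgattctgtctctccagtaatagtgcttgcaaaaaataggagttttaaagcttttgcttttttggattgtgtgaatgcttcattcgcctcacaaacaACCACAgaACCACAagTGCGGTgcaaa
Cilp: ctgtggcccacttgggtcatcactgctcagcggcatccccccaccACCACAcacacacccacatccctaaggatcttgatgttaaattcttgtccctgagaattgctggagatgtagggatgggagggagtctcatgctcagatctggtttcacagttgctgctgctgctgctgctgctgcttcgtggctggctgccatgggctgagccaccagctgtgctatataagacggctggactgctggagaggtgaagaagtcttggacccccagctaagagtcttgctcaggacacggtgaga
The upstream Runx1 window holds 2 matches, the downstream Runx1 window 0, Runx2 4, Cilp 1, Chad 1, and Acan and Tnmd 0. Of 32851 windows in the table, 22.4% hold at least 1 match, 2.86% at least 2 and 0.0639% at least 4. The longest run of bases that the upstream Runx1 window and the Runx2 window share is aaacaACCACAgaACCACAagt, 22 bases long, which starts 24 bases after the start site in Runx1 and 19 in Runx2, and holds 2 matches. No other gene of the table has this run in its window. A match describes letters in a window, and which start site these cells used was not measured.

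Scx (chromosome 15, bases 76457452 to 76459458, plus strand) was above the minimum in 1 cell, or 0.541% of all (0.0137 to 2.97), an infarct Tcf21-traced cell at 6.07. The other 184 cells were at 0, and 0 of 33 resident cells allows a share of up to 9.09%. Scx lies inside the Bop1 gene, which runs on the opposite strand and shares no exon bases with it. Bop1 was above the minimum in 27 cells, among them the cell with Scx, where its level was 6.68. That cell also had Mkx, another tendon transcription factor, at 5.81, Runx1 at 8.28, Sox9 at 6.92 and Comp at 4.88.

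Cilp (chromosome 9, bases 65265180 to 65280605, plus strand) had the highest mean of the 9 members in Postn-traced cells. In Postn-traced cells it had a lowest value of 0, a median of 8.44 and a highest of 11.95, and its values fell into 10 cells at 0 and 17 cells between 4.86 and 11.95, or 63% (42.4 to 80.6) above the minimum. In Postn-negative cells of the same run it had a median of 0 and a highest of 1.37, with 0 of 24 cells above the minimum, which allows a share of up to 12.5%. No Postn-negative cell reached the lowest of the 17. Infarct Tcf21-traced cells had a lowest value of 0, a median of 1.48 and a highest of 10.64, with 21 of 44 above the minimum or 47.7% (32.5 to 63.3), and scar cells a lowest value of 0, a median of 0 and a highest of 10.57, in a cell of 218 genes, with 13 of 29 or 44.8% (26.4 to 64.3). Untraced Postn-positive cells had a median of 0 and a highest of 9.18, with 10 of 28 above the minimum or 35.7% (18.6 to 55.9), in near-equal shares of 2 of 6, 7 of 19 and 1 of 3 over the Jul29, Nov4 and Nov11 runs.

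Resident cells were mostly near 0 for Cilp but not without it. The highest of 17 resident Tcf21-traced cells was 9.13, with 2 cells above the minimum, and the highest of 12 resident CD31- CD45- cells was 8.43, with 1 cell above it. By mean, the order was Postn-traced 5.99 ± 4.94, scar 3.76 ± 4.42, infarct Tcf21-traced 3.26 ± 3.71, untraced Postn-positive 2.30 ± 3.26, resident CD31- CD45- 1.27 ± 2.31, resident Tcf21-traced 1.26 ± 2.61 and Postn-negative 0.24 ± 0.43, and no gap between neighbours exceeds the larger of their SDs, although the last gap exceeds the smaller. Cilp was less tied to depth than Runx1 within classes, with r between its level and the number of genes per cell of 0.05 in Postn-traced and 0.27 in infarct Tcf21-traced cells. Over the cells of a run it was 0.44 in Jul29 and 0.21 in Nov4.

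Comp (chromosome 8, bases 70373558 to 70382066, plus strand) was found in few cells, but at high levels there. It was above the minimum in 25 cells or 13.5% of all (8.94 to 19.3), with a median of 7.57 among these and a highest value of 12.03, in a scar cell. Scar cells above the minimum numbered 6 of 29 or 20.7% (7.99 to 39.7), each at 7.22 or more, and infarct Tcf21-traced cells 12 of 44 or 27.3% (15 to 42.8), between 2.78 and 10.37. Postn-traced cells had 3 of 27 or 11.1% (2.35 to 29.2), with a highest value of 5.76, and untraced Postn-positive cells 3 of 28 or 10.7% (2.27 to 28.2), with a highest value of 11.37. All 24 Postn-negative and all 17 resident Tcf21-traced cells were listed at 0, and the highest of 12 resident CD31- CD45- cells was 1.34. Mean levels were 2.13 ± 4.01 in scar, 1.93 ± 3.31 in infarct Tcf21-traced, 0.90 ± 2.67 in untraced Postn-positive, 0.61 ± 1.63 in Postn-traced and 0.11 ± 0.39 in resident CD31- CD45- cells, with each gap between neighbours within the larger of their SDs.

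Chad (chromosome 11, bases 94565047 to 94569127, plus strand, inside the Acsf2 gene of the opposite strand) was above the minimum in 1 cell, a scar cell at 3.35 with Cilp at 8.91, Runx1 at 5.20 and Comp at 2.38. Acan (chromosome 7, bases 79053483 to 79115099, plus strand) was above it in 2 cells or 1.08% (0.131 to 3.85), both infarct Tcf21-traced, at 6.11 and 3.63. Tnmd (chromosome X, bases 133850980 to 133865577, plus strand) was above it in 2 cells, both untraced Postn-positive cells of the Nov4 run, at 6.36 and 6.17. All other cells were listed at 0 for these genes, so Chad, Acan and Tnmd were found in at most 2 cells of any class. With 0 of 27 Postn-traced cells, a share of up to 11.1% is allowed for each of Scx, Chad, Acan and Tnmd in that class.

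**Figure D1:**
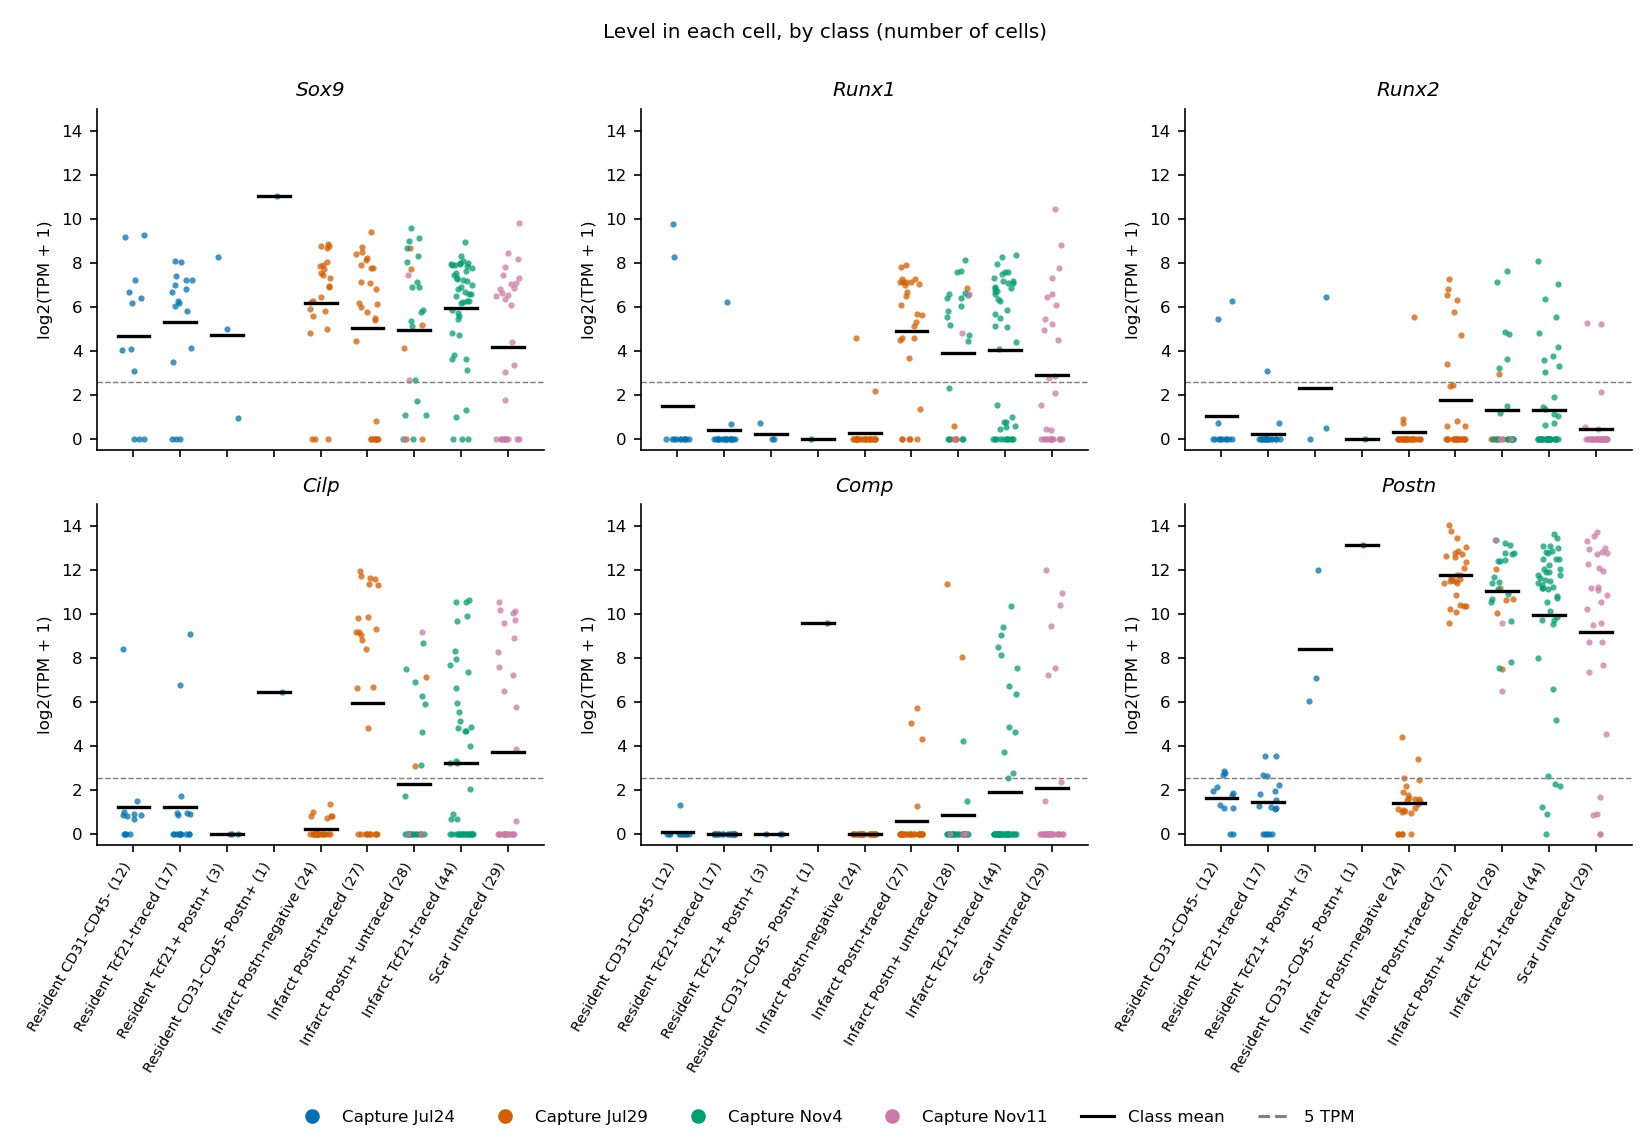
Level of 5 members and of Postn in each cell, as log2(TPM + 1), by class with the number of cells in brackets. Points are cells coloured by capture run, the black bar is the class mean and the dashed line marks 5 TPM. Sox9 lies mostly above the line in all classes of 10 or more cells, whereas Runx1 and Cilp lie near 0 in Postn-negative cells and have medians of 5.69 and 8.44 in Postn-traced cells.

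**Figure D2:**
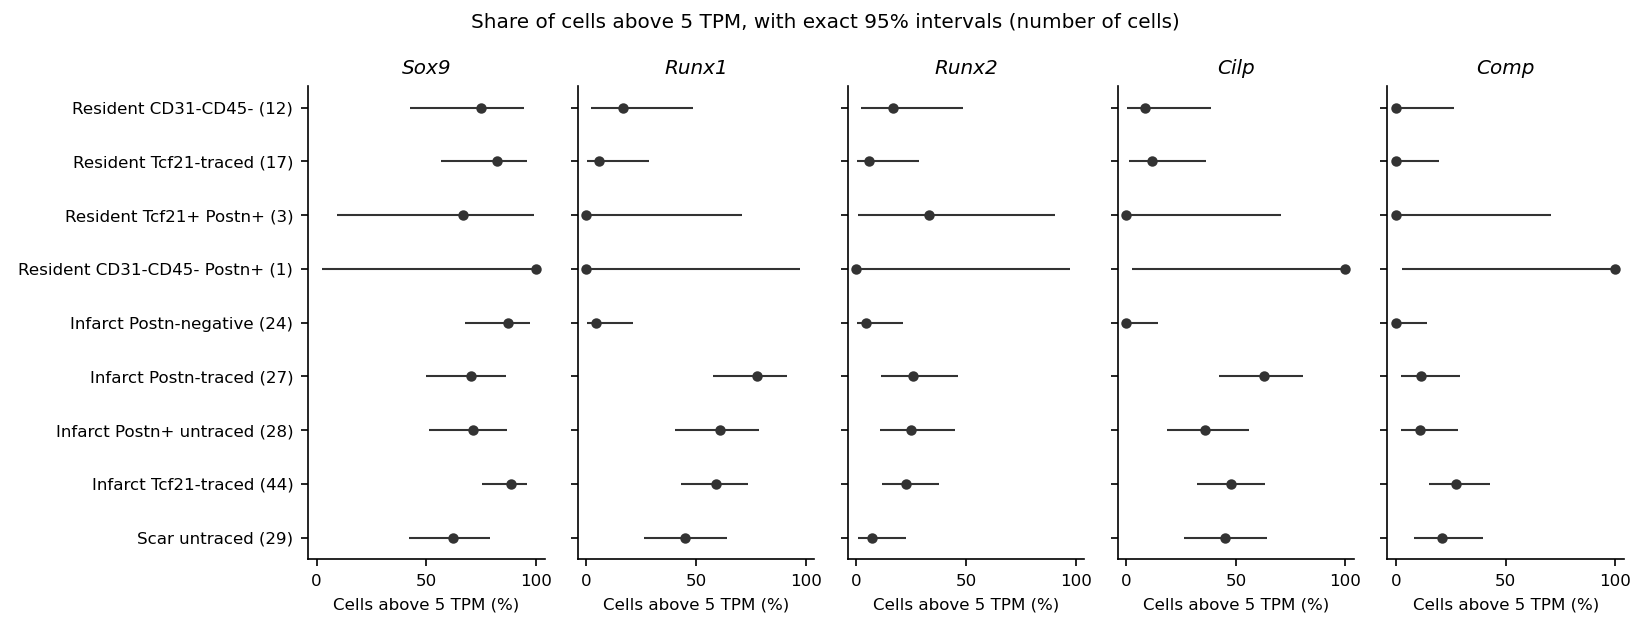
Percentage of cells above 5 TPM for 5 members in each class, with the number of cells in brackets. Bars are exact 95% Clopper-Pearson intervals and cover counting error only. For Runx1 the share was 77.8% in Postn-traced cells and 4.17% in Postn-negative cells, and each class is 1 sample.

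In the same capture run, Postn-traced cells were compared with Postn-negative cells to see which members go with the myofibroblast state. Of the 9 members, 3 were over 1 log2 unit higher in Postn-traced cells, Cilp, Runx1 and Runx2, and 1 was over 1 unit lower, Sox9. Of 15733 genes above 5 TPM in at least 1 cell, 16.7% were as much higher and 2.35% as much lower. Under the alternatives the higher share ran from 8.11% with a pseudocount of 5 to 33.2% with each cell centred, and the lower share from 1.08% with each cell centred to 18.4% by the linear mean. With the background cut to genes that pass 5 TPM in 10% of cells or more, which keeps 5 members, the shares were 31.9% and 4.42%. The lists below were not recounted in this way. Differences of class means were 5.75 for Cilp, 4.63 for Runx1, 1.47 for Runx2, 0.61 for Comp and -1.16 for Sox9. Only those of Cilp and Runx1 exceeded the larger SD of the classes, and they were larger than those of 99.9% of all genes. The median difference of the 9 members was 0, as Scx, Chad, Acan and Tnmd were at 0 in both classes, and that of all genes was 0.19. Markers of other cell types moved as well: Tagln and Acta2 of smooth muscle differed by 4.17 and 3.29 and Pdgfrb of pericytes by 2.16, and how far the members go with these was not tested. Of the alternatives, 7 can change a difference here. Cilp and Runx1 stayed past 1 unit under all 7, between 4.48 and 9.50 and between 3.01 and 7.03, whereas Runx2 did so under 4, and Sox9 under 1, a pseudocount of 0.1, where it was -1.64. Among cells with 2000 to 3500 genes above the minimum, the difference of Runx2 was 0.79 and that of Sox9 -0.72.

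Tcf21-traced cells of the infarct were compared with resident Tcf21-traced cells to see what the same lineage carries with and without MI. Here 4 of 9 members were over 1 log2 unit higher in the infarct, Runx1, Cilp, Comp and Runx2, and 0 were lower, against 16.9% and 2.65% of all genes. The differences were 3.64 for Runx1, 2.0 for Cilp, 1.93 for Comp and 1.10 for Runx2, and 0.62 for Sox9, which was -0.38 among cells with 2000 to 3500 genes and 1.06 with each cell centred. Only that of Runx1 exceeded the larger SD, and it was 1.81 among cells with 2000 to 3500 genes, where that of Runx2 was 0.99. By the median over cells, the differences of Runx2 and Comp were 0, since most cells of both classes were at 0. Of the markers of other cell types, Acta2, Tagln and Pdgfrb were over 1 unit higher in the infarct and Tek lower. How far the members go with these markers was not tested. These classes come from separate runs, and their labels treat Postn differently. The 3 resident Tcf21+ cells that express Postn have their own label and were left out. In the infarct class, 39 of 44 cells had Postn above the minimum. Of the 3 cells left out, 1 had Runx2 above it, and their mean Runx2 was 2.31. Adding them to the resident class was not tried.

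Postn-traced cells against resident Tcf21-traced cells gave 3 of 9 members over 1 log2 unit higher, Cilp, Runx1 and Runx2, and 0 lower, against 20% and 2.51% of all genes. The differences were 4.72 for Cilp, 4.51 for Runx1 and 1.54 for Runx2, while Sox9 differed by -0.28. Of the markers of other cell types, Acta2, Tagln and Pdgfrb were over 1 unit higher in Postn-traced cells and Tek lower. The difference of Runx2 was 0.94 with a pseudocount of 5, 0.52 among cells with 2000 to 3500 genes and 0 by the median over cells. That of Sox9 was 0.54 by the linear mean and 0.22 with each cell centred, with the sign turned. Comp differed by 0.61, but by 2.30 by the linear mean, 1.11 with each cell centred and 1.07 with a pseudocount of 0.1. With a pseudocount of 5 it differed by 0.34, among cells with 2000 to 3500 genes by 0.39 and by the median over cells by 0. This comparison shares its Postn-traced cells with the comparison with Postn-negative cells and its resident cells with the Tcf21 comparison, so the values stand side by side and are not separate support.

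Between the traced infarct classes, 1 of 9 members was over 1 log2 unit higher in Tcf21-traced than in Postn-traced cells, Comp at 1.32, and 1 was lower, Cilp at -2.72, against 3.43% and 6.14% of all genes. Sox9 differed by 0.89, Runx1 by -0.87 and Runx2 by -0.45, all within the SD, and so were the differences of Comp and Cilp. Among cells with 2000 to 3500 genes, Runx1 differed by -1.60, which is past 1 unit, Runx2 by 0.47, with the sign turned, and Sox9 by 0.13. With a pseudocount of 0.1, Runx1 differed by -1.23 and Sox9 by 1.52, whereas by the linear mean Sox9 differed by -0.16, with the sign turned. Comp stayed past 1 unit under 4 of 6 alternatives, and was 0.96 with a pseudocount of 5 and 0 by the median over cells. Within the Nov4 run, untraced Postn-positive cells had 0 members over 1 unit higher than Tcf21-traced cells and 1 lower, Comp at -1.63, against 5.05% and 3.34% of all genes. The difference of Comp rests on 12 of 44 against 1 of 19 cells above the minimum. By the median over cells it was 0, and Cilp differed by -1.48.

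Postn-negative infarct cells against resident CD31- CD45- cells had 1 of 9 members over 1 log2 unit higher, Sox9 at 1.52, and 2 lower, Runx1 at -1.22 and Cilp at -1.03, against 10.3% and 5.2% of all genes. Both classes are labelled Postn-. The Runx1 value rests on 2 resident cells above the minimum, which include the cell at 9.76 with 5 myeloid markers, and by the median over cells it was 0, with that of Cilp at -0.86. By the linear mean Runx1 differed by -5.55 and Cilp by -4.61. Sox9 differed by 0.42 among cells with 2000 to 3500 genes and by 0.25 by the linear mean. Scar cells against infarct Tcf21-traced cells had 0 members higher and 2 lower, Sox9 at -1.74 and Runx1 at -1.15, against 1.11% and 13.2% of all genes. The median difference of all genes was -0.12 there. Of the markers of other cell types, Acta2, Smtn and Tagln of smooth muscle were over 1 unit lower in scar cells and the epicardial Wt1 higher. The fibroblast markers Lum, Pdgfra and Tcf21 were lower as well. Without the scar cells of few genes, which left 23, the difference of Sox9 was -0.65 and that of Runx1 -1.08. Among cells with 2000 to 3500 genes Runx1 differed by 0.48, Sox9 by -0.46 and Cilp by 1.70, against 0.50 in all cells of the classes, and Cilp differed by -0.33 with each cell centred and by -1.48 by the median over cells.

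**Figure D3:**
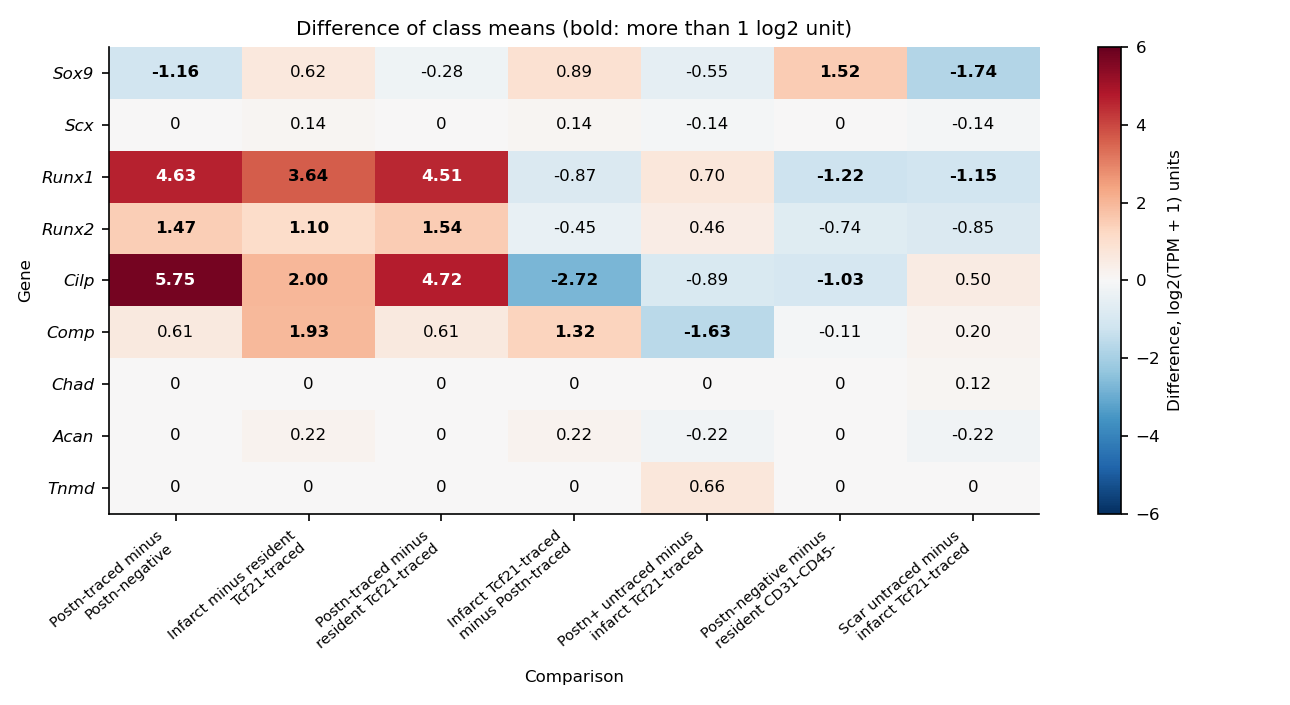
Difference of class means in log2(TPM + 1) units for the 9 members (rows) in 7 comparisons (columns), with values over 1 unit in bold. Cilp and Runx1 hold the largest values, 5.75 and 4.63 in Postn-traced minus Postn-negative cells, and Scx, Chad, Acan and Tnmd stay within 1 unit in all 7. By the linear mean, which is not drawn, Scx and Acan reached 1.32 and 1.49 in infarct minus resident Tcf21-traced cells. Tnmd reached 3.17 in untraced Postn-positive minus Tcf21-traced cells.

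Other genes of these programmes were read from lists. Of 20 cartilage matrix gene symbols, 15 have a row in the table, and 14 were above the minimum in at least 1 cell. Cnmd, without a row, is another symbol of Lect1, which has its own. Col11a1 and Matn2 were over 1 log2 unit higher in Postn-traced than in Postn-negative cells and 0 were lower, against 16.7% and 2.35% of all genes, which also stand beside the counts of this comparison for the lists that follow, with a median difference of -0.06 beside 0.19 for all genes. Col11a1, a minor fibrillar collagen, was at 2.65 ± 3.22 in Postn-traced cells, 11 of 27 above the minimum, and 0 in all Postn-negative cells. Col2a1, the main collagen of cartilage, was above the minimum in 2 cells, Col9a1 in 1, Hapln1 in 1 and Matn3 in 1. Prg4, which encodes lubricin, was above it in 76 of 152 infarct and 5 of 33 resident cells, and differed by 3.04 between infarct and resident Tcf21-traced cells.

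Of 12 chondrogenic regulators, 9 have a row and 8 were above the minimum in a cell, and 2 were over 1 log2 unit higher in Postn-traced than in Postn-negative cells, Pth1r by 1.23 and Trps1 by 1.20, with 0 lower and a median difference of 0.28. Sox5 and Sox6, which act with Sox9 in cartilage, were above the minimum in 34 and 2 cells, and Sox5 differed by -1.28 between infarct and resident Tcf21-traced cells, where Trps1 and Cbfb were higher, by 1.35 and 1.18. That is 2 higher and 1 lower, against 16.9% and 2.65% of all genes. Cbfb, the partner of the RUNX proteins, was above it in 44 of 152 infarct and 7 of 33 resident cells.

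Of 20 osteogenic genes, 13 have a row and 10 were above the minimum in a cell. Sparc, a matrix protein of bone that fibroblasts also make, was above it in every cell and was the 1 gene over 1 log2 unit higher in Postn-traced cells, at 13.58 ± 0.44 against 11.79 ± 0.69, a difference of 1.79 that exceeds the SD. Omd was the 1 gene lower, by a difference of -1.14, and the median difference of the list was 0.18. Spp1, which encodes osteopontin, was above the minimum in 13 of 152 infarct and 0 of 33 resident cells, and Alpl, a phosphatase needed for mineral, in 9 of 152 infarct and 2 of 33 resident cells. Alpl was at 0 in all Postn-traced cells and differed by -1.01 between them and resident Tcf21-traced cells, where Omd was also lower and Sparc and Twist1 were higher, by 2.43 and 1.18. These 2 higher and 2 lower genes stand against 20% and 2.51% of all genes. Between infarct and resident Tcf21-traced cells, Sparc, Spp1 and Twist1 were over 1 unit higher and Omd lower, against 16.9% and 2.65% of all genes. Twist1, a transcription factor that holds back bone formation, was above the minimum in 28 of 152 infarct and 0 of 33 resident cells.

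Of 12 tendon genes, 11 have a row and all 11 were above the minimum in a cell. Thbs4, Col12a1 and Fmod were over 1 log2 unit higher in Postn-traced than in Postn-negative cells, by 2.98, 2.65 and 1.97, and Egr1 was lower, at -1.20, with a median difference of 0.44. Thbs4 and Fmod encode matrix proteins of tendon, and Col12a1 a collagen that coats fibrils. Thbs4 was above the minimum in 26 infarct and 0 resident cells and Col12a1 in 55 of 152 and 1 of 33, while Mkx was above it in 4 cells. Between infarct and resident Tcf21-traced cells, however, Col12a1 was the 1 tendon gene higher, by 2.56, and Egr1 and Tgfbi were lower, at -2.84 and -2.61. Of all genes 16.9% were higher and 2.65% lower there, and the median difference was 0.13 for the list and 0.16 for all genes. Between traced infarct classes, which come from separate runs, 5 tendon genes were over 1 unit lower in Tcf21-traced cells, Egr1, Egr2, Fmod, Tgfbi and Thbs4. None were higher, against 6.14% lower and 3.43% higher of all genes. Egr1 was above the minimum in 140 of 152 infarct and 33 of 33 resident cells, and Egr2 in 76 and 19, so neither was limited to a few cells.

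Of 20 genes of BMP signalling, the pathway that induces bone and cartilage, 18 have a row and all 18 were above the minimum in a cell. In Postn-traced cells 7 were over 1 log2 unit higher, Acvr1, Bmp1, Bmper, Bmpr1a, Fstl1, Id1 and Smad1, and 2 were lower, Bmp2 and Bmp4, with a median difference of 0.43. Acvr1 and Bmpr1a are BMP receptors, Smad1 carries their signal and Id1 is a target of it, with differences of 1.37, 2.20, 1.65 and 1.31. Against resident Tcf21-traced cells, however, Id1 differed by -1.09 in the same Postn-traced cells, and it differed by -2.93 between Postn-negative and resident CD31- CD45- cells. Bmp1, at 3.12, is a procollagen proteinase and no BMP ligand, and the ligands Bmp2 and Bmp4 differed by -1.18 and -1.01. Only the difference of Fstl1, at 1.30, exceeded the larger SD. Between infarct and resident Tcf21-traced cells, 6 genes of this list were higher and 2 lower, against 16.9% and 2.65% of all genes.

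Members in the same cell were counted next. The number of members above the minimum had a median of 1 in resident Tcf21-traced, resident CD31- CD45- and Postn-negative cells, and of 2 in Postn-traced, 2 in untraced Postn-positive, 2.5 in infarct Tcf21-traced and 2 in scar cells. At least 3 members were above it in 55 of 152 infarct cells or 36.2% (28.6 to 44.4) and in 1 of 33 resident cells or 3.03% (0.0767 to 15.8). The median number of all genes above the minimum was also higher in infarct cells, 3071.5 against 2258, and its part in these counts was not tested. By class this was 22 of 44 infarct Tcf21-traced, 13 of 27 Postn-traced, 11 of 28 untraced Postn-positive, 9 of 29 scar and 0 of 24 Postn-negative cells. The largest number was 5, in 2 cells of the Nov4 run.

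Cilp and Comp were above the minimum in infarct cells only where Postn was: all 61 infarct cells with Cilp and all 24 with Comp had Postn above the minimum, which 121 of 152 infarct cells had. Runx1 was seen with Postn in 75 of 78 infarct cells, Runx2 in 26 of 27 and Sox9 in 92 of 117. Among resident cells, 3 of 4 with Cilp and all 3 with Runx1 had Postn at or under the minimum, while Postn was above it in 11 of all 33. The class labels name Postn, so its level follows from the labels in classes labelled Postn+ or Postn-, among them the resident CD31- CD45- cells. These resident CD31- CD45- cells include 2 of the 3 resident cells with Runx1 and 1 of the 4 with Cilp.

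Comp and Sox9 were seen together in 24 of the 25 cells with Comp above the minimum, while Sox9 was above it in 77.3% of all cells. Comp with Cilp was seen in 16 of 25, while Cilp was above it in 35.1% of all cells. Over the cells of a class, r between Sox9 and Comp was 0.24 in Postn-traced (n = 27) and 0.04 in infarct Tcf21-traced cells (n = 44), and between Cilp and Comp 0.17 and 0.00065. Sox9 and Runx1 had r of -0.16 and -0.00010 in these classes, and Runx1 and Cilp 0.07 and 0.12. Other pairs were Runx1 and Runx2, at 0.32 and 0.12, Runx1 and Comp, at 0.25 and 0.16, Runx2 and Comp, at -0.25 and 0.33, Sox9 and Runx2, at -0.27 and 0.06, Runx2 and Cilp, at -0.21 and -0.06, and Sox9 and Cilp, at 0.13 and 0.06. Most cells of a class are at 0 for Runx2 and Comp, so these values rest on few cells.

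**Figure D4:**
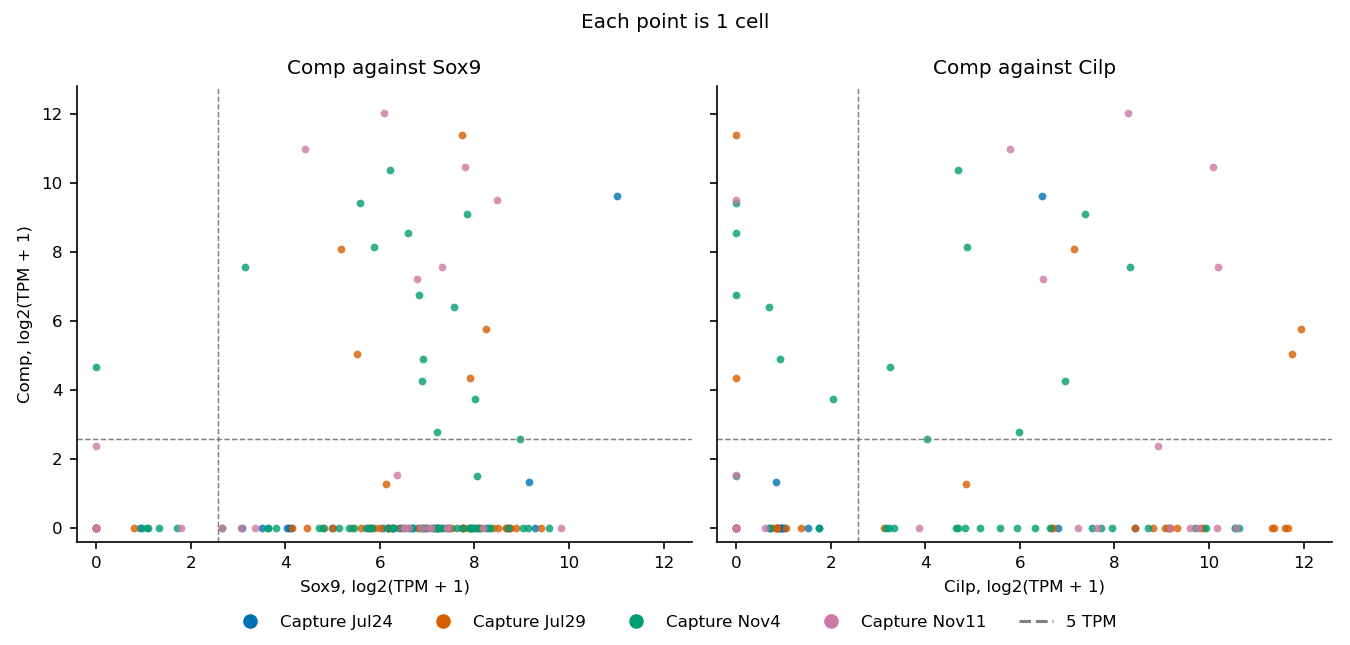
Comp level against Sox9 (left) and Cilp (right) in each cell, in log2(TPM + 1), coloured by capture run, with dashed lines at 5 TPM. Of the 25 cells above the line for Comp, 24 lie to the right of the line for Sox9 and 16 to the right of that for Cilp.

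**Figure D5:**
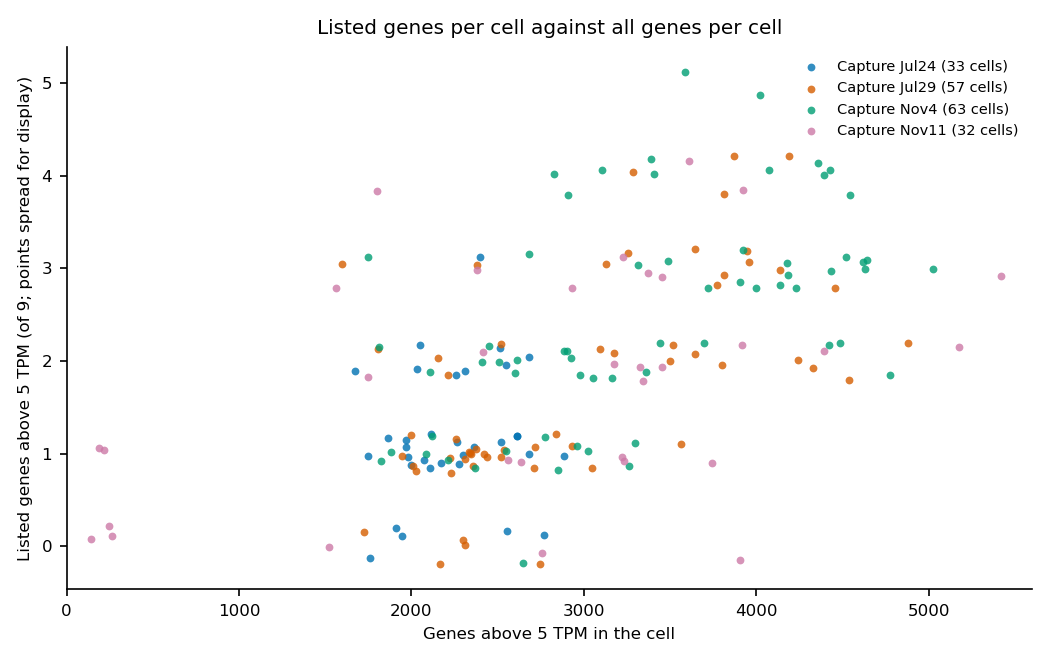
Number of the 9 members above 5 TPM in each cell against the number of all genes above 5 TPM in that cell, coloured by capture run, with points spread vertically for display. Cells of the Jul24 run lie between 1674 and 2887 genes and hold at most 3 members, and the highest number is 5.

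The genes whose levels most resembled a member were sought by the mean of Pearson r over the 57 cells of the Jul29 run and the 63 of the Nov4 run, among the 4594 genes that passed 5 TPM in 20% or more of the cells in both runs. For Runx1 these were Cthrc1 with r of 0.71 and 0.56, Col1a2 with 0.71 and 0.57 and Fn1 with 0.68 and 0.59, all encoding secreted matrix or matrix-linked proteins. For Cilp they were Ltbp2, a protein of elastic microfibrils, with 0.75 and 0.38, Postn with 0.61 and 0.44, and Meox1, a homeobox transcription factor, with 0.47 and 0.56. Sox9 had no close partner, the nearest being Dusp6 with 0.19 and 0.43, Zfr with 0.22 and 0.37 and Sept2 with 0.16 and 0.43. Within a run depth and class vary together, and the r of Runx1 with the number of genes per cell, 0.64 and 0.56, was about as high as with these genes.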

How the data were processed

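Single cells were captured on Fluidigm C1 chips, amplified with SMARTer chemistry and tagmented. The submitters' processing notes name Bowtie 1.0.0 and eXpress 1.5.1 with the mouse build mm10. The values deposited by the authors are log2(TPM + 1), on the log2 scale, 1 column per cell; converted back, each column sums to between 999257 and 1000000 TPM, which fits TPM. These abundances are relative, so a gene's value depends on all others in the cell, and amplified reads carry no molecular identifiers. Another 3 unnamed columns, which hold gene symbols in capitals and numbers, belong to no sample and were not used. Classes come from the labels and runs from the cell names.

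Class means of log2(TPM + 1) were compared in 7 comparisons, with over 1 log2 unit as the call and genes above 5 TPM in at least 1 cell as the background. Shares have exact 95% Clopper-Pearson intervals, and a count of 0 allows 3 of the total. This limit lies under the upper end of the exact interval, which is 14.2% for 0 of 24. No tests were made. The promoter windows and motif were chosen after the values were seen, and a looser motif, TGNGGT, was searched first and replaced. The alternatives were pseudocounts of 0.1 and 5, the linear mean, the median over cells, centring of each cell, leaving out 7 cells with under 50% of their run's median gene number, a background of genes in 10% of cells, minimums of 1 TPM and 0, Spearman correlation, a Postn-negative class with the 6 untraced Postn-positive cells of its run added, and, chosen after seeing the data, cells with 2000 to 3500 genes.

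The members and lists were chosen with earlier results of these data known. Named genes are the members, list genes over 1 log2 unit apart between Postn-traced and Postn-negative cells, the 3 genes most like each member seen in at least 10 cells of both runs, and Postn, Col1a1, Acta2 and Tcf21; other list genes in the text were named after their values were seen. The calculations ran in Python 3.11.15 with pandas 2.3.3, while SciPy 1.17.1 gave the intervals, NumPy 2.4.6 the arrays and Matplotlib 3.10.9 the plots. The comparison was tested on simulated data, positions come from GENCODE M21 (GRCm38) and promoter windows from RefSeq (GRCm38.p6).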

Additional observations from a re-analysis of the deposited data

How the results depend on the processing

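Across 7 comparisons, the number of members over 1 log2 unit apart was within 1.5 times the reported count under 25 alternatives and not under 19, while another 13 left the cells and values of a comparison as they were and could not change it; beyond what each alternative changes by construction, the cause was not tested. For Postn-traced against Postn-negative cells the count was 4, and it was 2 by the median over cells, with a pseudocount of 5 and among cells with 2000 to 3500 genes above 5 TPM. In that order, the shares of all genes higher and lower were 12.9% and 1.89%, 8.11% and 1.4%, and 12.2% and 6.42%. The count was also 4 by the linear mean and with each cell centred, but with Comp in place of Sox9. The shares there were 27.6% and 18.4%, and 33.2% and 1.08%. Infarct against resident Tcf21-traced cells gave 4, and 2 by the median, 6 by the linear mean and 5 with each cell centred. Of all genes 16.9% were higher and 2.65% lower as reported. The shares were 31.5% and 17.3% by the linear mean, 29.4% and 1.21% with each cell centred and 12.4% and 2.07% by the median. Infarct Tcf21-traced against Postn-traced cells gave 2, but 4 by the linear mean and with a pseudocount of 0.1, and 1, without Comp, by the median and with a pseudocount of 5. Untraced Postn-positive against Tcf21-traced cells gave 1, but 5 by the linear mean, 3 with a pseudocount of 0.1 and 2 among cells with 2000 to 3500 genes, while the 1 by the median was Cilp in place of Comp. Of all genes 5.05% were higher and 3.34% lower as reported. The shares were 15.8% and 22.6% by the linear mean and 11.8% and 7.94% with a pseudocount of 0.1. Among cells with 2000 to 3500 genes they were 9.64% and 6.69%, and by the median 7.01% and 4.2%. Postn-negative against resident CD31- CD45- cells gave 3, and 1 by the median, with a pseudocount of 5 and among cells with 2000 to 3500 genes. That 1 was Sox9 by the median and with a pseudocount of 5, but Cilp, at -1.21, among cells with 2000 to 3500 genes. Of all genes 10.3% were higher and 5.2% lower as reported. The shares were 5.98% and 3.06% by the median and 5.49% and 2.5% with a pseudocount of 5. In the range of 2000 to 3500 genes they were 9.71% and 8.16%. Scar against Tcf21-traced cells gave 2, but 4 by the linear mean and with each cell centred, and 1 with a pseudocount of 5, without cells of few genes and among cells with 2000 to 3500 genes. Of all genes 1.11% were higher and 13.2% lower as reported. The shares were 17.4% and 25.2% by the linear mean and 0.0763% and 45.4% with each cell centred. With a pseudocount of 5 they were 0.375% and 6.63%, and without cells of few genes 4.14% and 6.35%. In the range of 2000 to 3500 genes they were 8.61% and 5.38%. The Runx1 difference of that comparison, -1.15, was 0.28 by the linear mean and 0.48 among cells with 2000 to 3500 genes. Of the other differences of members that an alternative could change, 359 moved by no more than the spread between cells and 35 by more. Of such shares, 103 stayed within their interval and 12 did not, and of the genes most like Sox9, 1 of 3 was also found by Spearman correlation.

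Centring each cell moved the median difference of all genes from 0.19 to 0.71 between Postn-traced and Postn-negative cells and from -0.12 to -0.95 between scar and Tcf21-traced cells. Depth differs between classes and runs, no class has a second sample, and 3 classes rest on 12, 3 and 1 cells, so class differences cannot be told apart from those of mice or, for classes of separate runs, of runs. A gene in few molecules can be missed, so a value of 0 is no proof of absence.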

Other observations

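The 1 resident CD31- CD45- cell that expresses Postn stood apart from the other resident cells. It had Sox9 at 11.02, the highest of all cells, Comp at 9.62, Cilp at 6.47 and Postn at 13.13, with Fmod at 9.39, Col1a1 at 7.22 and Runx1, Runx2, Acta2 and Tcf21 at 0. It was the only resident cell with Comp above 5 TPM and the only one with 3 members above it, at 2397 genes above the minimum. The 3 resident Tcf21+ cells that express Postn had Sox9 at 0.93, 4.99 and 8.25, and Cilp and Comp at 0 in each.

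Cells with the highest Comp had varied company. The scar cell with the highest value, 12.03, had Fmod at 9.16, Cilp at 8.28 and Runx1 at 0, and an untraced Postn-positive cell of the Jul29 run at 11.37 had Fmod at 9.38, Runx1 at 6.88 and Cilp at 0. A scar cell with Comp at 9.49 had Sox9 at 8.47 and Col2a1 at 5.62. Acta2 was at 0 in 5 of the 6 scar cells with Comp above 5 TPM, and in 19 of all 29 scar cells. An infarct Tcf21-traced cell at 10.37 had Runx2 at 8.09, the highest Runx2 value of all cells, with Runx1 at 7.58, Sox9 at 6.21 and Cilp at 4.69, and was 1 of the 2 cells with 5 members above 5 TPM. These cells were picked after their values were seen.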
